A study of Mus musculus with 14 samples.

Results

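Transcript levels of 8 transcription factors tied to the maturation of enterocytes, the absorptive cells of the small intestine, were followed across the ileum of suckling, weaned and IL-22-treated mice. The members are Prdm1, Maf, Cdx2, Hnf4a, Hnf4g, Gata4, Gata6 and Thra, taken by gene symbol, and all 8 were found among the 46882 entries of the deposited expression table. In the mouse, the intestine of the suckling pup takes up milk whole by endocytosis and digests lactose, and around weaning it switches to the adult programme of luminal digestion and sugar uptake. Prdm1 encodes the repressor BLIMP1, which holds back the adult programme in suckling enterocytes, CDX2 sets intestinal identity, the nuclear receptors HNF4A and HNF4G drive enterocyte differentiation, and GATA4 and GATA6 pattern the gut along its length. c-MAF, encoded by Maf, is tied to nutrient uptake along the villus, and Thra encodes the thyroid hormone receptor alpha, through which thyroid hormone acts on the gut at weaning. Interleukin-22 is a cytokine of innate and adaptive lymphocytes whose receptor lies on epithelial cells.

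RNA was sequenced in 14 libraries, each from whole ileum of wild-type mice of the inbred strain C57BL/6N. Untreated mice gave 4 libraries at postnatal day 14 (P14) and 4 at postnatal day 24 (P24). The other mice were injected into the peritoneum on days 14 and 15, either with 0.1 µg of recombinant mouse IL-22 per g of body weight in 100 µL of phosphate-buffered saline (rmIl22, 3 libraries) or with the saline alone (PBS, 3 libraries), and were killed on day 16. The protocol's day 16 is not what the age field says (day 14 under PBS, day 24 under rmIl22), and the groups follow the sample titles. The series text calls the replicates biological and does not name the animals, so p-values measure the spread between these libraries.

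The libraries held 35.6 to 46.5 M reads assigned to genes. Values are TPM, transcript abundances corrected for gene length and brought to a common total, so levels of different genes can be set side by side. All 9 general epithelial markers, such as Epcam and Vil1, had reads, and their summed level was 7348 to 9302 TPM at P14, 13132 to 16159 at P24, 9221 to 10598 in PBS and 9273 to 13170 in rmIl22 libraries. In whole tissue, fewer cells of a type and less RNA per cell cannot be told apart. Xist, or else transcripts of the Y chromosome, split the libraries unevenly over the groups: 2 of 4 libraries at P14 and 3 of 4 at P24 had Xist, as had 0 of 3 PBS and 2 of 3 rmIl22 libraries. Library 2 of the rmIl22 group stood apart from libraries 1 and 3, for example on Gata4, and without it the number of genes passing the test between rmIl22 and PBS went from 389 to 1309. Member results and list counts that rest on it are given with and without it. As library 2 was singled out on these same values, calls made without it are not separate evidence of an effect of IL-22.

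Reference promoters were read for 3 of the 8 members, 250 bases up to each RefSeq transcription start on GRCm38.p6 (the build mm10). Hnf4a, Cdx2 and Prdm1 were the members with an entry in the promoter reference used. Hnf4a was highest of the 8 in level, Cdx2 had no passed change, and Prdm1 fell the most with age among the 7 members tested. Hnf4a has a pair of starts 40298 bases apart, the upstream start belonging to the P2 and the downstream start to the P1 promoter, and the expression table sums both in 1 entry, so their use was not separated. Capitals mark the match to a motif searched, GATAA, letters that GATA factors recognise, on either strand.
Hnf4a upstream start, chr2:163506607-163506856, plus strand: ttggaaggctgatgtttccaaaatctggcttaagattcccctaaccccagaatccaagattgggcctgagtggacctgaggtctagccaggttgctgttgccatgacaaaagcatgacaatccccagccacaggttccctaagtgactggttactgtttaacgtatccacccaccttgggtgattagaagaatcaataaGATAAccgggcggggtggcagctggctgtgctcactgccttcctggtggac
Hnf4a downstream start, chr2:163546905-163547154, plus strand: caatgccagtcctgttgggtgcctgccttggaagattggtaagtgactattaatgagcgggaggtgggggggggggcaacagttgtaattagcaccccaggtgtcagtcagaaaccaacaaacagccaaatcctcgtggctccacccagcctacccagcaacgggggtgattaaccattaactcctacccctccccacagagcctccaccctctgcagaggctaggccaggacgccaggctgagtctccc
Cdx2, chr5:147307250-147307499, minus strand: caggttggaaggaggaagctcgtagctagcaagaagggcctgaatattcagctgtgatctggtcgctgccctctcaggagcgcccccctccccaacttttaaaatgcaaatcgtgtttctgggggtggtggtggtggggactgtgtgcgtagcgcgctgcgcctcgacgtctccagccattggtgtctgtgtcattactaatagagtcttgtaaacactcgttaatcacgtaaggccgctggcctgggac
Prdm1, chr10:44458749-44458998, minus strand: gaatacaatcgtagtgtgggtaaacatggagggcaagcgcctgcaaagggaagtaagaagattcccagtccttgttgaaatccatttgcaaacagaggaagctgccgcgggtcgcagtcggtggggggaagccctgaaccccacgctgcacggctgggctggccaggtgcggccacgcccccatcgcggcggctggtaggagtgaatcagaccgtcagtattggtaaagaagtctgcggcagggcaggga

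The upstream Hnf4a window held 1 GATAA on its own strand, from −51 to −47 relative to the start. The downstream Hnf4a, Cdx2 and Prdm1 windows held none of the 5 motifs searched. The Prdm1 start lies inside the wider Prdm1 interval of the GENCODE annotation. The motifs were GATAA for GATA factors, TTTATNG for CDX, CAAAGTCCA for HNF4, GNGAAAG for BLIMP1 and TTCNNNGAA for STAT factors, read on both strands. Over 32851 promoter windows of the same length, GATAA was in 22.6%, GNGAAAG in 19.4%, TTTATNG in 9.8%, TTCNNNGAA in 7.0% and CAAAGTCCA in 0.4%. This match describes letters in the reference, not a bound site.

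By mean level over the 14 libraries, Hnf4a was the most abundant at 310 TPM, ranking 362 among the 14574 genes with a mean of at least 1 TPM. Cdx2 followed at 173 TPM (rank 654) and Hnf4g at 145 TPM (rank 781). Maf was at 59.6 TPM, Thra at 37.6, Gata6 at 35.6 and Prdm1 at 23.1. Gata4 was the lowest at 5.32 TPM (rank 9683), with a spread from 0.0983 to 17.4 TPM between single libraries.

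**Figure D1:**
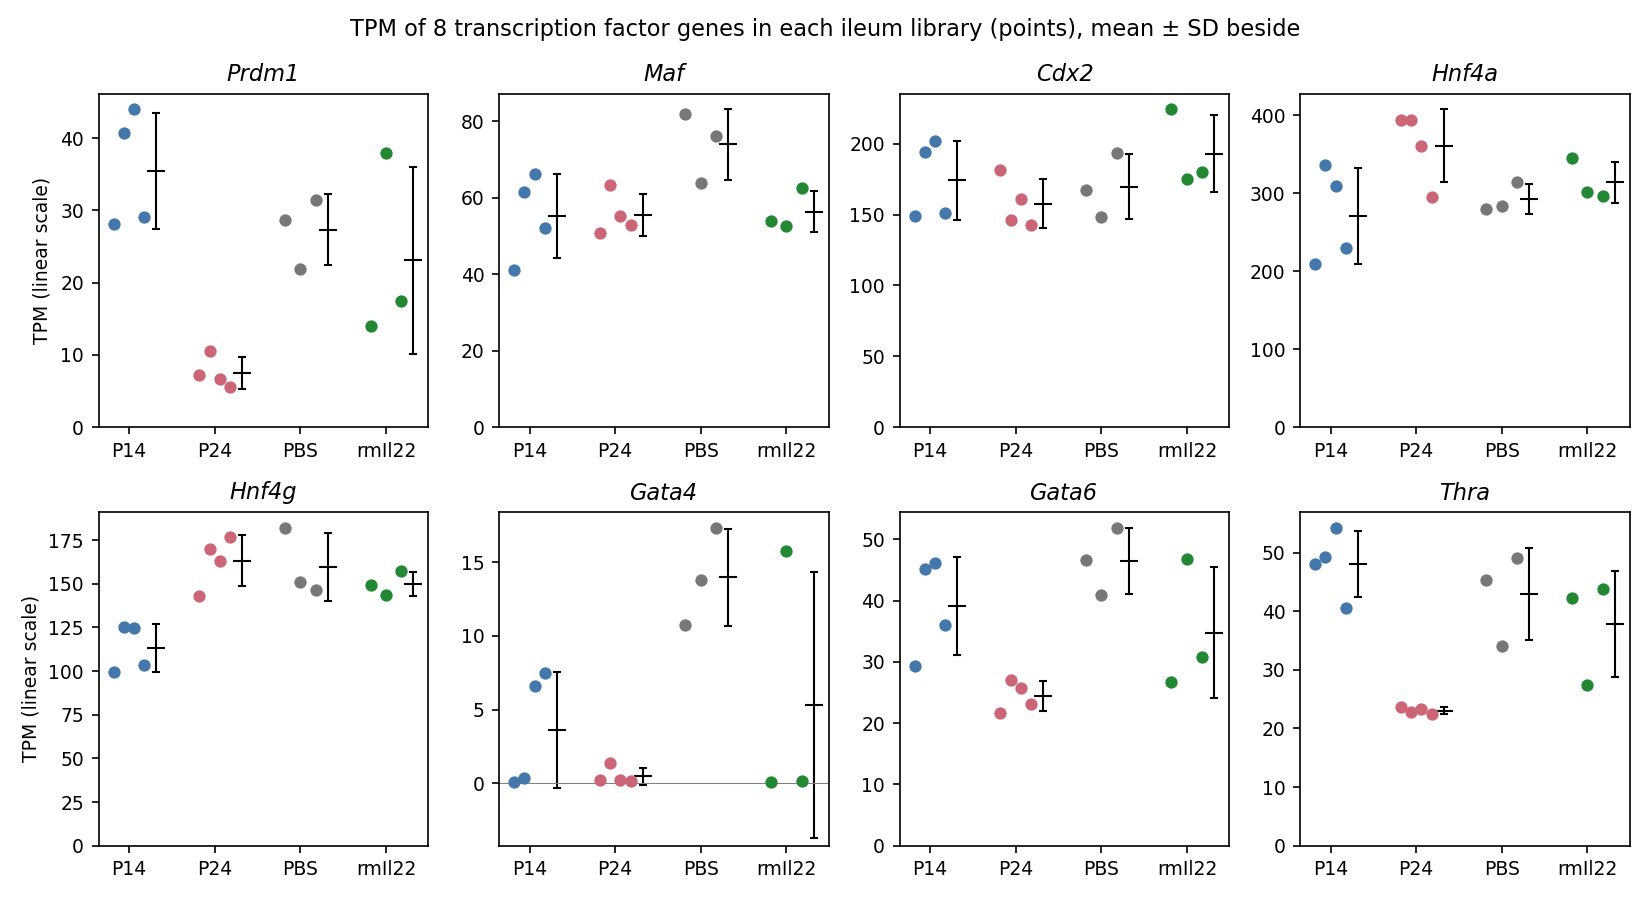
Level of each of the 8 genes in TPM, with 1 point per library and the group mean ± SD beside it for P14 (n = 4), P24 (n = 4), PBS (n = 3) and rmIl22 (n = 3). Each gene has its own linear axis, which starts at 0 except for Gata4, where it starts below 0 to hold the SD bars. Prdm1, Thra and Gata6 are lower and Hnf4g higher in all 4 P24 libraries than in any P14 library, while Gata4 splits the P14 and rmIl22 libraries into high and low ones.

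With age, 7 of the 8 factors were tested and 5 passed (limma on log2(TPM + 1), two-sided, adjusted p under 0.05 over all genes tested, here named "called"): Prdm1, Gata6 and Thra were lower at P24 than at P14, and Hnf4a and Hnf4g higher. Of all 14651 genes tested, 58.3% were called, 14.6% higher and 43.7% lower, so a share of 5 in 7 lies near that of the whole table. In TPM, which share 1 total per library, the median gene moved by −0.25 on the log2 scale and the 7 members by a median of −0.13. After each library was rescaled so that its median gene stood level (median-scaled values), 57.9% of all genes were called, 28.6% higher and 29.3% lower, and 6 members were called, 3 in each direction, Maf being the sixth. Between P14 and P24, 4 members had groups that did not overlap, 3 of them lower, when 52.4% of all genes tested had such groups, and 39.4% of all genes tested had them in the lower direction.

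After IL-22, 0 of the 8 factors were called, all 8 having been tested. The background was small: 2.69% of 14456 genes were called, 0.443% higher and 2.25% lower, and 2.05% on median-scaled values. With unadjusted p-values, 2 members, Maf (0.022) and Gata4 (0.042), were under 0.05, as were 2235 of all genes, and limma-voom on recovered reads called 219 genes and 0 members. Without rmIl22 library 2, Prdm1, Gata4 and Gata6 were called lower, when 9.06% of all genes were called, 5.91% lower. The median log2 difference was −0.27 for the 8 members and −0.05 for all genes tested. Maf was the one member whose rmIl22 and PBS values did not overlap, which was so for 21.1% of all genes tested and in the lower direction for 15.4%. For rmIl22 against PBS, the authors' deposited table lists 1102 genes, 371 higher and 731 lower, with adjusted p-values up to 0.01. It lists 0 of the 8 members.

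The age and IL-22 effects share no library, and the difference between them, age minus IL-22, was tested in 1 fit of all 14 libraries. It was called for 3 of the 8 members, Prdm1 and Thra downward and Hnf4g upward, against 23.8% of 15702 genes, 6.51% upward and 17.3% downward. On median-scaled values 27.9% of all genes were called, 14.0% in each direction, and Maf was called as well.

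**Figure D2:**
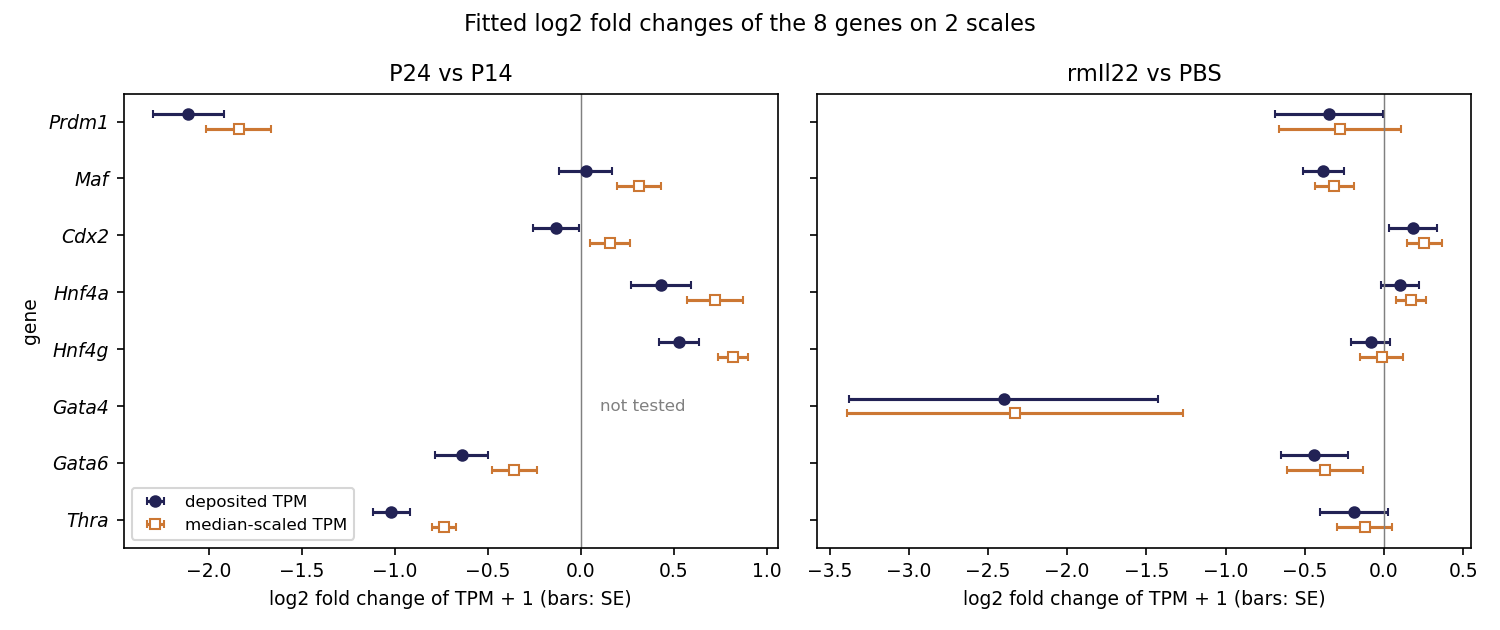
Log2 fold change (of TPM + 1) of each gene for P24 against P14 and for rmIl22 against PBS, bars being standard errors, with filled circles for the deposited TPM and open squares for median-scaled TPM. With age Prdm1 lies lowest, at −2.11, and rescaling moves every gene upward, turning Cdx2 from −0.13 to 0.16, while with IL-22 the bar of Gata4 is the widest, at −2.40 with an SE of 0.97.

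Prdm1 lies on chromosome 10 (44437177 to 44528501, minus strand, mm10). It stood at 28.1, 40.7, 44.0 and 29.1 TPM in the P14 libraries and at 7.26, 10.6, 6.61 and 5.55 TPM in the P24 libraries. Every P24 library was below every P14 library, and the P24 values came from 645 to 1040 reads each. The mean went from 35.5 ± 8.05 TPM (SD, n = 4) to 7.51 ± 2.18 (SD, n = 4), and Prdm1 fell by 2.11 on the log2 scale (SE 0.19, limma adjusted p = 2.85e-06), a 4.30-fold change. Relative to the median gene the log2 change was −1.84 (adjusted p = 2.08e-05). Within libraries with Xist the log2 difference was −2.14 and within those with Y-linked transcripts, only 1 of them at P24, −2.08. The authors' deposited table gives −1.9 with an adjusted p of 1.21e-09.

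In the injected mice Prdm1 stood at 28.7, 21.9 and 31.4 TPM with PBS and at 13.9, 37.9 and 17.4 TPM with rmIl22. Libraries 1 and 3 of the rmIl22 group were below all PBS libraries, and library 2 was above them. The means were 27.3 ± 4.94 and 23.1 ± 13.0 TPM (SD, n = 3 each), with a log2 difference of −0.35 (SE 0.34, limma adjusted p = 0.746). Without rmIl22 library 2 Prdm1 was called lower, at −0.76 (SE 0.18, adjusted p = 0.0368). The age and IL-22 effects on Prdm1 differed by −1.76 (SE 0.41, adjusted p = 0.00781), and this was called under every alternative tried, the adjusted p running from 0.00302 to 0.0263. By group mean the order was P14, PBS, rmIl22 and P24, and of the neighbours only rmIl22 and P24 had ranges that did not overlap.

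Prdm1 is also expressed in plasma cells. All 10 markers of B and plasma cells had reads. Their summed level was 7.39 to 50.1 TPM at P14 and 67.0 to 389 TPM at P24, with 3 of 8 tested markers higher (Igha, Igkc and Jchain) and 0 lower. The sum was 25.1 to 109 TPM in the PBS and 6.35 to 57.5 TPM in the rmIl22 libraries, with 0 of 8 tested markers called. The part of these or other cells in the Prdm1 values was not tested. Among the 3 genes whose profile over the 14 libraries lay closest to that of Prdm1, of 14573 searched, were Myo7a, which encodes an unconventional myosin (root mean square log2 distance 0.212), and Slc6a3, the dopamine transporter gene (0.243). The spread of Prdm1 about its own mean was 0.921 on the same measure.

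Maf (chromosome 8, 115682942 to 115707794, minus strand) stood at 41.1, 61.5, 66.1 and 52.2 TPM at P14 and at 50.7, 63.2, 55.1 and 53.0 TPM at P24. The P24 values lay within the range of the P14 values. Its log2 change with age was 0.03 (SE 0.14, limma adjusted p = 0.886), and relative to the median gene 0.31, which was called (adjusted p = 0.0471). Limma-voom on recovered, median-scaled reads gave 0.37 (adjusted p = 0.0176), and the direction on deposited TPM turned to −0.11 without P14 library 1 and to −0.04 without P24 library 2. The authors' deposited table gives 0.34 with an adjusted p of 0.0306.

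With PBS, Maf was at 81.8, 63.9 and 76.1 TPM, and with rmIl22 at 53.9, 52.7 and 62.4 TPM. All rmIl22 values lay below all PBS values. Means were 73.9 ± 9.18 and 56.3 ± 5.30 TPM (SD, n = 3 each), and the log2 difference of −0.38 (SE 0.13) did not pass (limma adjusted p = 0.213, and from 0.186 to 0.550 over the alternatives). The difference between the age and IL-22 effects was 0.41 (SE 0.21, adjusted p = 0.166) on deposited TPM and 0.63 (adjusted p = 0.0214) on median-scaled TPM.

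Maf is also expressed in macrophages. All 10 markers of macrophages and dendritic cells had reads. Their summed level was 216 to 267 TPM at P14 and 165 to 222 at P24, with 3 of 10 markers lower and 0 higher, Csf1r the most (log2 change −1.92, adjusted p = 7.74e-08). On median-scaled values 3 were lower and 4 higher. It was 285 to 356 TPM with PBS and 231 to 292 with rmIl22, where Csf1r was again lower (−1.16, adjusted p = 0.0151). The part of these markers in the Maf values was not tested. Of 12 amino acid, peptide and sugar uptake genes tied to c-MAF in mouse enterocytes, 6 rose with age and 2 fell (8 and 1 on median-scaled values), with Slc2a5 (fructose, 2.55), Slc5a1 (glucose, 1.97) and Slc15a1 (peptides, 1.92) up and the amino acid transporter genes Slc7a8 (−1.49) and Slc3a2 (−0.64) down on the log2 scale. Slc3a2 was not called on median-scaled values (−0.36, adjusted p = 0.0714). The list's median was 0.32 against −0.25 for all genes. After IL-22, 1 of the 12 was called, the sugar transporter gene Slc2a2, at −2.82 (adjusted p = 0.0110), and without rmIl22 library 2 there were 3 higher and 3 lower.

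Cdx2 (chromosome 5, 147300805 to 147307270, minus strand) stood at 149, 194, 202 and 151 TPM at P14 and at 181, 146, 161 and 143 TPM at P24. It was at 167, 148 and 194 TPM with PBS and at 224, 175 and 180 TPM with rmIl22. All 4 groups overlapped, and the highest single value was in rmIl22 library 1, which also had the highest epithelial marker sum of the injected mice. The log2 change with age was −0.13 (SE 0.13, limma adjusted p = 0.379), or 0.16 on median-scaled TPM (adjusted p = 0.240), so its direction turned with the scaling. After IL-22 the log2 difference was 0.18 (SE 0.15, adjusted p = 0.677). The authors' deposited table gives 0.19 with an adjusted p of 0.214 for age.

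Cdx1, the relative of Cdx2, had a log2 change of −0.18 with age (SE 0.13, adjusted p = 0.234) and −0.06 after IL-22 (SE 0.10, adjusted p = 0.876). The Cdx2 to Cdx1 ratio was 1.48 to 1.65 at P14, 1.55 to 1.83 at P24, 1.10 to 1.38 with PBS and 1.37 to 1.55 with rmIl22. Only the PBS libraries lay below both untreated groups throughout. Cdx4 had 1 read in 1 library and 0 in the other 13.

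Hnf4a (chromosome 2, 163506808 to 163572910, plus strand) stood at 209, 336, 309 and 229 TPM at P14 and at 393, 394, 360 and 295 TPM at P24. The groups overlapped through P24 library 8, which lay below P14 libraries 2 and 4. Means were 271 ± 61.4 and 361 ± 46.7 TPM (SD, n = 4 each), and Hnf4a rose by 0.43 on the log2 scale (SE 0.16, limma adjusted p = 0.0379). This call was lost without P14 library 1 (0.31, adjusted p = 0.0967) or 5 (0.36, 0.100), or without P24 library 1 (0.38, 0.0897), 2 (0.38, 0.0823) or 6 (0.43, 0.0708), and with no filter on low genes (0.0955). Relative to the median gene the rise was 0.72 (adjusted p = 0.00263), and the authors' deposited table gives 0.75 with an adjusted p of 1.74e-06.

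Hnf4g (chromosome 3, 3508030 to 3658052, plus strand) stood at 99.5, 126, 124 and 104 TPM at P14 and at 143, 170, 163 and 177 TPM at P24. Every P24 library was above every P14 library. Hnf4g rose by 0.53 on the log2 scale (SE 0.11, limma adjusted p = 0.00167), from 113 ± 13.7 to 163 ± 14.6 TPM (SD, n = 4 each), a 1.44-fold change. It was called under all 15 alternatives, the adjusted p running from 2.30e-05 to 0.00602, with 0.82 on median-scaled TPM. The authors' deposited table gives 0.85 with an adjusted p of 1.15e-13.

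In the injected mice Hnf4a stood at 280, 283 and 314 TPM with PBS and at 344, 301 and 297 TPM with rmIl22. Hnf4g stood at 182, 151 and 146 TPM with PBS and at 149, 144 and 157 TPM with rmIl22. Both genes had overlapping groups. The log2 differences were 0.10 for Hnf4a (SE 0.12, limma adjusted p = 0.794) and −0.08 for Hnf4g (SE 0.12, adjusted p = 0.841), the latter turning to 0.06 under quantile normalisation and to 0.01 without PBS library 1. The age effect exceeded the IL-22 effect for Hnf4g, by 0.61 (SE 0.16, adjusted p = 0.0154), and the difference did not pass for Hnf4a, at 0.33 (SE 0.23, adjusted p = 0.299). PBS values of Hnf4g at day 16 reached the P24 range, the mean being 160 ± 19.4 TPM (SD, n = 3), above the highest P14 library in all 3.

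Transcript for transcript Hnf4a stayed ahead of Hnf4g in all 14 libraries. Their ratio, Hnf4g to Hnf4a, was 0.374 to 0.477 at P14, 0.364 to 0.601 at P24, 0.466 to 0.651 with PBS and 0.433 to 0.530 with rmIl22, and all of these ranges overlapped.

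A long antisense gene, Hnf4aos, runs opposite to Hnf4a over 34913 bases and fell by 2.71 with age (SE 0.15, adjusted p = 3.94e-08). Hnf4aos stood at 15.0 ± 2.79 TPM at P14 and 1.43 ± 0.302 at P24 (SD, n = 4 each). It was at 11.9 ± 2.70 TPM with PBS and 4.35 ± 1.98 with rmIl22 (SD, n = 3 each), a log2 difference of −1.32 (limma adjusted p = 0.0628), and it was called without rmIl22 library 2 (−1.05, adjusted p = 0.0273). It had 20 to 419 reads per library against at least 23834 for Hnf4a. The strand setting of the authors' counting is not stated, and reads of this antisense gene and of Hnf4a are uncertain at that scale.

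Genes that HNF4 factors bind or activate in mouse enterocytes did not move one way with age. Among 17 such genes there were 3 that rose, 6 that fell and 8 that did not pass, at a median log2 change of −0.36 against −0.25 for all genes, and on median-scaled values 5 rose and 4 fell. The fatty acid binding protein gene Fabp2 (3.15), the brush border myosin gene Myo1a (1.48) and the villin gene Vil1 (0.93) rose. The apolipoprotein genes Apoa4 (−5.69) and Apoc3 (−3.26) and the transthyretin gene Ttr (−4.49) fell. After IL-22, with all libraries, only Ttr was called among the 17, at −2.03 (adjusted p = 0.0126). Without rmIl22 library 2, 7 of the 17 were called lower, Apoa4 among them (−2.15, adjusted p = 0.000415).

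Gata4 (chromosome 14, 63198922 to 63271692, minus strand) stood at 0.119, 0.378, 6.57 and 7.51 TPM at P14, from 11, 33, 527 and 719 reads. At P24 it stood at 0.235, 1.36, 0.226 and 0.145 TPM, from 22, 95, 20 and 12 reads. P14 libraries 4 and 5 were above all P24 libraries, and P14 libraries 1 and 2 lay within the P24 range or below it. The filter of at least 1 TPM in 4 libraries left Gata4 out of the age test. On its own the mean difference on the log2(TPM + 1) scale was −1.15, with an exact two-sided permutation p of 0.257 over 70 regroupings, of which 0.0286 is the smallest possible. The 2 high P14 libraries are also the 2 with Xist, so the sex-linked transcripts and the Gata4 level cannot be told apart at P14. Within Xist libraries the difference was −2.43, against −0.01 within Y-linked ones, which include only 1 P24 library. Among injected mice the Y-linked PBS libraries were at 10.8 to 17.4 TPM, and rmIl22 libraries 2 and 3, with Xist, at 15.8 and 0.177 TPM. The authors' deposited table gives −2.57 with an adjusted p of 0.137.

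With PBS, Gata4 stood at 10.8, 13.8 and 17.4 TPM, from 900, 1247 and 1200 reads. With rmIl22 it stood at 0.0983, 15.8 and 0.177 TPM, from 8, 1234 and 14 reads. Libraries 1 and 3 of the rmIl22 group were at the level of the lowest untreated libraries, and library 2 lay inside the PBS range. The log2 difference of −2.40 (SE 0.97) did not pass (limma adjusted p = 0.296). Without rmIl22 library 2 it was −3.70 (SE 0.20, adjusted p = 0.000142). Library 2 was set apart by Gata4 itself, so this small SE and p-value follow in part from that choice. With it left out, only the PBS libraries bring Gata4 over the filter of 1 TPM in 3 libraries. The difference between the age and IL-22 effects was 1.25 (SE 1.25, adjusted p = 0.487). Without rmIl22 library 2 this difference was 2.54 (adjusted p = 0.0485), when 31.7% of all genes were called and 7.04% upward.

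GATA4 is known in the mouse for keeping the jejunum from taking on ileal features, and genes on both sides of that boundary were read in the same libraries. Fabp1, a fatty acid binding protein gene of the proximal gut, was at 73.2, 1570 and 1029 TPM with PBS and at 2.34, 699 and 2.32 TPM with rmIl22. The lactase gene Lct was at 675, 588 and 827 TPM with PBS and at 66.0, 523 and 65.1 TPM with rmIl22. The ileal bile acid transporter gene Slc10a2 went the other way, at 19.8, 18.3 and 5.13 TPM with PBS and 366, 35.7 and 237 TPM with rmIl22. For all 3 genes, rmIl22 library 2 lay with or next to the PBS libraries and libraries 1 and 3 far from them, as for Gata4. Not every gene of that boundary split this way. Slc51b was at 421, 472 and 417 TPM with PBS and at 903, 738 and 835 TPM with rmIl22, library 2 lying with libraries 1 and 3.

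Of Fabp1, Lct and Slc10a2, none was called between rmIl22 and PBS with all libraries (limma adjusted p = 0.375, 0.172 and 0.0976). Without library 2 all 3 were called, at log2 differences of −7.21 (adjusted p = 0.00666), −3.38 (0.000110) and 4.45 (0.00178). Library 2 stood apart on these genes as well, so these calls follow in part from leaving it out. At P14 Lct was at 46.7, 138, 404 and 468 TPM and Fabp1 at 0.229, 1.94, 2.29 and 225 TPM, so P14 library 5 was high in both and library 1 low in both. At P24, with Gata4 low, Lct was at 1.65 to 4.48 TPM and Slc10a2 at 728 to 923 TPM in every library, whereas the low-Gata4 P14 libraries 1 and 2 had Slc10a2 at 7.81 and 15.5 TPM. Fabp1 was at 7.29 to 9.57 TPM at P24, above P14 libraries 1, 2 and 4 and below library 5. It did not pass with age (0.37, limma adjusted p = 0.81). Of 7 tested genes of the boundary list, 4 rose and 2 fell with age, and 1, the bile acid exporter subunit gene Slc51b, was called after IL-22 (0.91, adjusted p = 0.0201), with 2 higher and 3 lower without rmIl22 library 2. The part of the position along the intestine from which the tissue was taken was not tested.

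**Figure D3:**
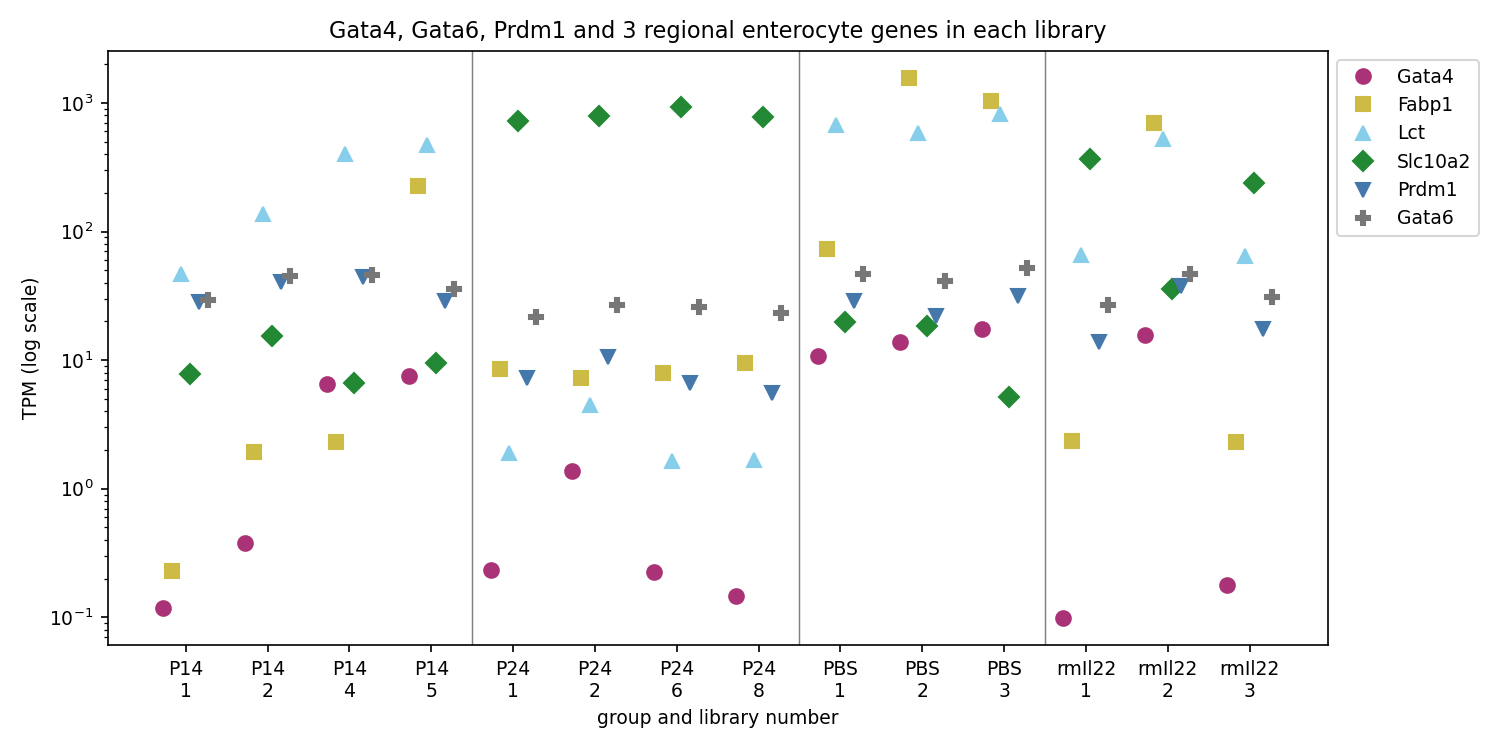
TPM on a log axis of Gata4, Gata6, Prdm1 and 3 regional enterocyte genes in each of the 14 libraries, with points of 1 library set side by side and groups parted by vertical lines. In rmIl22 library 2 Gata4 stands at 15.8 TPM with Fabp1 and Lct high and Slc10a2 low, as in the PBS libraries, and in rmIl22 libraries 1 and 3 Gata4 stands below 0.2 TPM.

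Gata6 (chromosome 18, 11052064 to 11085635, plus strand) is expressed along the whole small intestine, crypts included. It stood at 29.3, 45.1, 46.1 and 36.1 TPM at P14 and at 21.7, 27.1, 25.8 and 23.1 TPM at P24. No P24 library reached the lowest P14 library. Gata6 fell by 0.64 on the log2 scale (SE 0.14, limma adjusted p = 0.00249), from 39.1 ± 7.99 to 24.4 ± 2.44 TPM (SD, n = 4 each), and by 0.36 relative to the median gene (adjusted p = 0.0296). The authors' deposited table gives −0.35 with an adjusted p of 0.147, so the gene does not pass there.

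In the injected mice Gata6 stood at 46.6, 41.0 and 51.8 TPM with PBS and at 26.8, 46.9 and 30.7 TPM with rmIl22. Libraries 1 and 3 were below the PBS range, and library 2 was inside it, as for Gata4 at a higher level. The log2 difference was −0.44 (SE 0.21, limma adjusted p = 0.386), and without library 2 it was −0.67 (SE 0.14, adjusted p = 0.0226). The difference between the age and IL-22 effects was −0.20 (SE 0.26, adjusted p = 0.606), and it turned to 0.02 on median-scaled TPM and to 0.03 without rmIl22 library 2. The Gata6 to Gata4 ratio spanned 2.97 to 4.33 with PBS, 2.98 to 273 with rmIl22, 4.80 to 246 at P14 and 19.9 to 159 at P24, so Gata6 was above Gata4 in every library.

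Gata5, the other GATA factor of the epithelium, had a log2 change of 0.29 with age (SE 0.12, adjusted p = 0.0538) and was called on median-scaled TPM (0.58, adjusted p = 0.00143). A gene transcribed opposite to Gata6 over 504 bases, 1010001N08Rik, fell with age by 0.93 (SE 0.17, adjusted p = 0.000660). After IL-22 its log2 difference was −0.74 (adjusted p = 0.0517), and −0.78 without rmIl22 library 2 (adjusted p = 0.0232). It had 111 to 464 reads against at least 1544 for Gata6.

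Thra (chromosome 11, 98740638 to 98769006, plus strand) stood at 48.1, 49.3, 54.2 and 40.6 TPM at P14 and at 23.7, 22.7, 23.3 and 22.4 TPM at P24. The groups were far apart, and the P24 libraries were closer to each other than for any other member, with a coefficient of variation of 2.55%. Thra fell by 1.02 on the log2 scale (SE 0.10, limma adjusted p = 5.23e-06), from 48.0 ± 5.63 to 23.0 ± 0.588 TPM (SD, n = 4 each), a 2.03-fold change. It fell by 0.74 relative to the median gene (adjusted p = 1.22e-05). The log2 difference was −1.01 both within Xist and within Y-linked libraries, the latter with only 1 P24 library. The authors' deposited table gives −0.73 with an adjusted p of 2.23e-08.

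After injection Thra stood at 45.4, 34.0 and 49.1 TPM with PBS and at 42.2, 27.4 and 43.8 TPM with rmIl22. The groups overlapped, and here library 2 was the lowest of the rmIl22 libraries. The log2 difference was −0.19 (SE 0.22, limma adjusted p = 0.786), turning to 0.02 without library 2. Age and IL-22 effects differed by −0.83 (SE 0.23, adjusted p = 0.0175), a call that was lost without PBS library 2 (−0.68, adjusted p = 0.0543) or rmIl22 library 3 (−0.71, adjusted p = 0.0514).

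Thrb, which encodes the other thyroid hormone receptor, fell with age by 0.86 (SE 0.13, limma adjusted p = 0.000185), from 11.1 ± 2.18 to 5.60 ± 0.339 TPM (SD, n = 4 each). It was also lower after IL-22, by −0.74 (SE 0.13, adjusted p = 0.0366), at 8.28 ± 0.474 TPM against 14.6 ± 2.12 with PBS (SD, n = 3 each). The Thra to Thrb ratio was 3.94 to 5.43 at P14 and 3.76 to 4.36 at P24, which overlap, but 2.78 to 3.01 with PBS and 3.49 to 5.35 with rmIl22, which do not. Both receptor genes were called lower with age and Thrb after IL-22, and the difference between the 2 genes was not tested.

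Around the receptors, 17 genes of thyroid hormone transport, deiodination, corepression and response were tested with age: 4 rose, 7 fell and 6 did not pass, and on median-scaled values 7 rose and 4 fell. Among responsive genes Thrsp (3.26), Nr1d1 (1.24) and Hr (0.81) rose on the log2 scale, and Klf9 fell by 0.56 (adjusted p = 0.0170), which did not pass on median-scaled values (−0.27, adjusted p = 0.175). The deiodinase genes Dio3, whose product inactivates thyroid hormone (−2.50), and Dio1 (−1.83) fell. After IL-22, Thrb was the 1 gene of 16 tested that was called, and without rmIl22 library 2 Dio1 was called lower too (−0.50, adjusted p = 0.0325; with it −0.65, 0.0747). Nr1d1 overlaps the 3' end of Thra on the opposite strand by 1075 bases and had 26 to 547 reads, against at least 1873 for Thra.

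Closest to Thra over the 14 libraries were Snap47 (root mean square log2 distance 0.084), Dnmt3a, a DNA methyltransferase gene (0.088), and Fam117a (0.090), against a spread of Thra about its own mean of 0.452. Markers of some other cell types were lower at P24, as Thra, Prdm1 and Gata6 were. All 7 tested markers of neurons and glia fell (6 on median-scaled values), with a summed level of 49.4 to 69.4 TPM at P14 and 13.9 to 22.0 at P24. All 8 markers of endothelium fell (7 on median-scaled values; 63.3 to 93.6 and 38.4 to 47.4 TPM), as did 5 of 7 markers of fibroblasts (736 to 1403 and 456 to 629 TPM). Other lists did not go that way: of 8 smooth muscle markers 2 rose and 0 fell (4 and 0 on median-scaled values), of 10 tested markers of T and other lymphoid cells 3 rose and 1 fell, and of 3 tested mesothelial markers 0 were called by limma (1 rose on median-scaled values). Of 9 epithelial markers 5 rose and 1 fell (8 and 1 on median-scaled values). No marker of these lists was at 0 in all libraries, and the part of cell composition in the members' values was not tested.

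**Figure D4:**
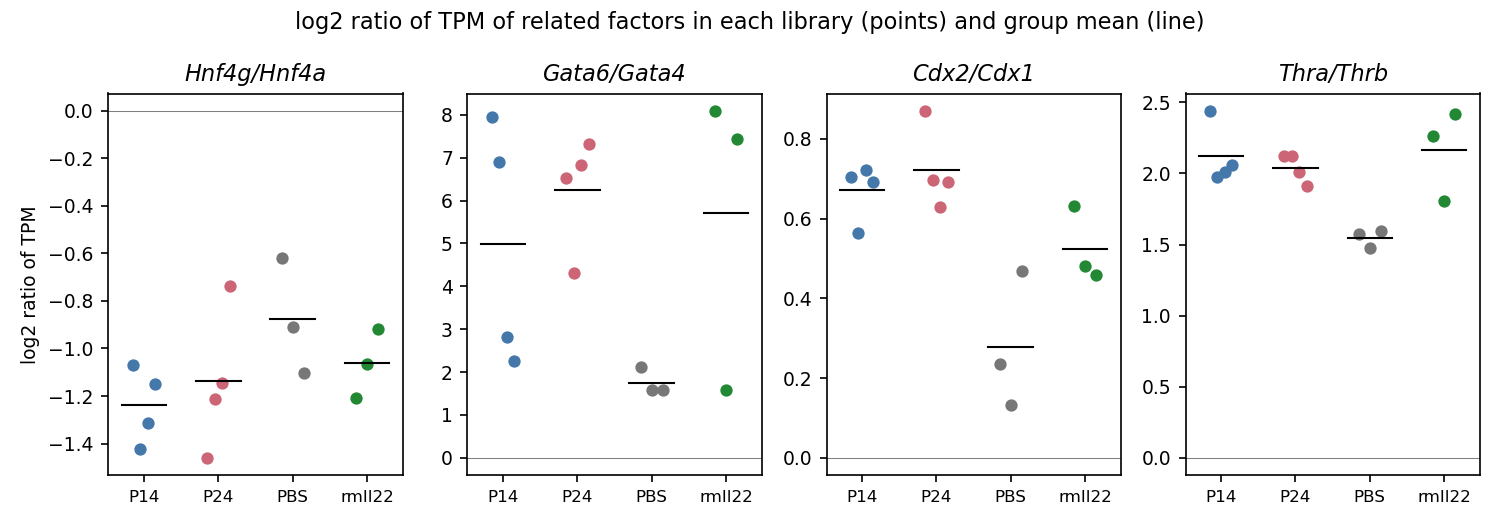
Log2 ratio of TPM between related factors in each library (points), with the group mean as a line, for Hnf4g to Hnf4a, Gata6 to Gata4, Cdx2 to Cdx1 and Thra to Thrb, each panel on its own scale. The Hnf4g to Hnf4a ratio overlaps in all 4 groups, and the Thra to Thrb ratio of every PBS library, at most 3.01 before the log, lies below every rmIl22 library.

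Among 39 tested factors of the intestinal epithelium outside the 8, 12 rose with age and 10 fell, and on median-scaled values 19 rose and 4 fell. The vitamin D receptor gene Vdr (1.75), the carbohydrate response factor gene Mlxipl (1.01) and Elf3 (0.94) rose the most. Among those that fell were Creb3l3 (−2.32) and Ppara (−0.63). After IL-22, 0 of the 39 were called by limma, and without rmIl22 library 2 there were 5 higher and 2 lower. In the programmes around the factors, 16 of 19 suckling enterocyte genes fell with age, with a median log2 change of −4.74, and 11 of 16 adult enterocyte genes rose, with a median of 2.26. After IL-22, 4 of the 19 suckling genes were called lower, Nox4 (−3.65), Folr1 (−1.36) and Mcoln3 (−1.24) among them, and 1 of the 16 adult genes was called in each direction. Without rmIl22 library 2, 14 suckling genes were called lower and 2 higher, and 5 adult genes higher and 3 lower.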

How the data were processed

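Per the labels' protocols, total RNA of mouse whole ileum was depleted of ribosomal RNA and sequenced with a stranded kit. The submitters' processing notes name FastQC 0.11.2, STAR 2.4.0f, HTSeq 0.6.1p1, DESeq2 1.14 and the mm10 build. Which step each served is not given in the sources used here. The authors deposited TPM per gene symbol and library, and tables of comparisons with log2 fold changes and adjusted p-values, written with decimal commas. Columns for P14 (1, 2, 4, 5) and for P24 (1, 2, 6, 8) are numbered otherwise than the labels' replicates, so each was assigned to its group only. Of 46882 entries, 27 whose symbols had become date numbers were left out (at most 0.08% of TPM).

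TPM steps gave whole reads, within 0.01, for all 31189 genes above 0. These gave the depth of 35.6 to 46.5 M reads (median 42.7 M), which bears on counting error only. Library pairs of a group differed by more than sampling noise (chi-square per degree of freedom 30.89 to 254.6).

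Tests used limma 3.58.1 (R 4.3.3, trended empirical Bayes) on log2(TPM + 1), which understates changes of low genes, over genes with at least 1 TPM in at least 4 (age) or 3 libraries. The test of P24 against P14 used the 8 untreated libraries and that of rmIl22 against PBS the 6 injected ones. Tests were two-sided, with Benjamini-Hochberg adjustment over all genes tested and a threshold of 0.05. They were also run on simulated reads with the same spread for every gene and no library standing apart. That setting does not cover the spread between the rmIl22 libraries. Median-scaled values divide each library by the median ratio of its genes to their means. All 8 members are named, with at most the 3 largest called rises and falls of each gene list, and the relatives and genes overlapping a member. Some genes of these lists are not reported here. Members and lists were chosen with earlier results of these data known. Alternatives were pseudocount 0.1, no filter, median or quantile scaling, voom on reads, all libraries in 1 fit, the replicate block, leaving out each library, and, chosen after seeing the data, Xist or Y transcripts as a covariate. Gene positions are from GENCODE M21 and promoters from RefSeq, both on GRCm38.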

Additional observations from a re-analysis of the deposited data

Results flagged for a closer look

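Gata4 in P24 library 2 stood at 1.362 TPM, far above the other 3 P24 libraries (0.145 to 0.235 TPM), past the critical value of Dixon's test for 4 libraries. Of 16 groups of members tested in this way, 1 was past it, and chance gives about 1 in 20.

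The effects of age and of IL-22 differed for 3 members by the test of the difference itself (age minus IL-22, limma over all genes): Prdm1 by −1.76 (adjusted p = 0.00781), Hnf4g by 0.61 (adjusted p = 0.0154) and Thra by −0.83 (adjusted p = 0.0175) on the log2 scale. Prdm1 was lower in 4 of 4 P24 libraries than in any P14 library and in 2 of 3 rmIl22 libraries than in any PBS library. In rmIl22 library 2 it was above every PBS library, and its IL-22 difference was not called (−0.35, limma adjusted p = 0.746).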

How the results depend on the processing

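Of the member results under all alternatives, 359 kept direction and side of the threshold, 8 lost the call, 10 gained one and 11 turned sign, none of these 11 called. Prdm1, Hnf4g, Gata6 and Thra kept their age calls throughout. Called genes for age split into 2146 higher and 6400 lower on deposited TPM and 4195 and 4286 on median-scaled TPM.

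For rmIl22 against PBS, 389 genes were called, and 98 with no filter, 219 with voom, 1058 in the fit of all 14 libraries, 122 with Xist or Y transcripts as a covariate, and 4 to 1309 when leaving out 1 library (14 without PBS library 1, 119 without 2, 4 without 3; 148 without rmIl22 library 1, 1309 without 2, 118 without 3). Members called ran from 0 to 3. With the replicate block 280 genes and 0 members were called (Prdm1 −0.35, adjusted p = 0.766). Deviations of same-numbered PBS and rmIl22 libraries correlated at −0.07, 0.33 and −0.05. Differently numbered ones correlated at −0.34 to 0.4, so with 3 libraries per group these values cannot show whether libraries were paired. No paired analysis was made for P24 against P14, as the labels give no pairing between mice of these ages.

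Leaving out 1 library gave 7450 to 8942 genes and 4 to 5 members for age, and 2392 (without PBS library 2) to 4984 genes and 2 to 4 members for the difference of effects. Voom called 5 members there, adding Maf (0.61, adjusted p = 0.0275) and Hnf4a (0.53, adjusted p = 0.0479), and quantile scaling added Cdx2 (−0.44, adjusted p = 0.0316). Signs turned with age for Maf (−0.02 with the covariate, −0.04 without P24 library 2, −0.11 to 0.12 when leaving out 1 library) and Cdx2 (0.16 median-scaled, 0.21 voom). With IL-22 they turned for Hnf4g (0.06 with quantile scaling, 0.06 with voom, 0.01 without PBS library 1, −0.14 to 0.01 when leaving out 1 library) and Thra (0.02 without rmIl22 library 2, −0.34 to 0.02 when leaving out 1 library). In the difference they turned for Gata6 (0.02 median-scaled, 0.03 without rmIl22 library 2, −0.36 to 0.03 when leaving out 1 library). The cause was not tested. At 8 to 14 reads, counting error limits Gata4 in its lowest libraries.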
